A study of Mus musculus with 39 samples.

Results

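Astrocytes answer neurotransmitters with calcium released from internal stores, and 8 genes of that route were examined here. Itpr1, Itpr2 and Itpr3 encode the inositol trisphosphate (IP3) receptors, the calcium release channels of the endoplasmic reticulum. Grm3 and Grm5 encode metabotropic glutamate receptors, P2ry1 an ATP and ADP receptor, Adora1 the adenosine A1 receptor and Adra1a an alpha-1 adrenergic receptor for noradrenaline. The genes were picked by name for these roles, with earlier results of these data known. All 8 were found among the 55401 genes of the deposited count table. They were followed over 6 groups of astrocyte libraries from male mice: NAc susceptible (n = 8), NAc resilient (n = 7), NAc control (n = 7), PFC susceptible (n = 6), PFC resilient (n = 5) and PFC control (n = 6). Susceptible and resilient mice went through chronic social defeat stress (CSDS), a run of encounters with an aggressive mouse after which animals are sorted by their social behaviour, while control mice carry only the label Control. Strain, age and the time of tissue collection are not given in the labels. The series title names CREB, a transcription factor, and the nucleus accumbens (NAc). Per the labels' protocols, cells were collected from bilateral micropunches with magnetic beads against ACSA-2, an epitope of the sodium pump subunit encoded by Atp1b2. NAc is the only tissue the protocol text mentions, whereas the tissue label of 17 of the 39 libraries reads PFC, which the labels do not spell out.

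In astrocytes, Gq-coupled receptors such as those encoded by Grm5, P2ry1 and Adra1a activate phospholipase C, which makes IP3, and IP3 opens the IP3 receptors. The receptor encoded by Itpr2 is best known as the main astrocytic form in mice, that of Itpr1 as the main neuronal form, abundant in Purkinje cells, and that of Itpr3 as a form of secretory epithelia. Grm3 and Adora1 encode Gi-coupled receptors that lower cyclic AMP, and Grm3 is a gene of adult astrocytes, whereas Grm5 is known from neurons and from astrocytes of the young brain. Noradrenaline acting on alpha-1 receptors raises astrocyte calcium during arousal.

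On mm10 with the GENCODE release M21 annotation, the counts of the 8 genes relate to the whole gene span, introns included, on which the deposited FPKM are based. Itpr1 (ENSMUSG00000030102.11) lies on chromosome 6 at 108213096 to 108551109 on the plus strand, and Itpr2 (ENSMUSG00000030287.15) on the same chromosome at 146108299 to 146502223 on the minus strand. Itpr3 (ENSMUSG00000042644.9) lies on chromosome 17 at 27057304 to 27122223, plus strand. Grm3 (ENSMUSG00000003974.6) lies on chromosome 5 at 9485541 to 9725170, minus strand, and Grm5 (ENSMUSG00000049583.15) on chromosome 7 at 87584168 to 88134907, plus strand. P2ry1 (ENSMUSG00000027765.6) lies on chromosome 3 at 61002795 to 61008982, plus strand, Adora1 (ENSMUSG00000042429.8) on chromosome 1 at 134199223 to 134235431, minus strand, and Adra1a (ENSMUSG00000045875.13) on chromosome 14 at 66635251 to 66771168, plus strand. Annotated exons cover 1.27% of the 239.6 kb of Grm3 and 1.86% of the 550.7 kb of Grm5, against 69.3% of the 6.19 kb of P2ry1, so the same FPKM (the count scaled to gene span and library total) rests on very different numbers of reads. P2ry1 had between 2 and 163 counts per library and Grm3 between 684 and 15196. Genes on the opposite strand overlap Itpr3 (Itpr3os), P2ry1 (Gm37035) and Adora1 (Mybph) among others, and since the strand setting of the counting is not given in the sources used here, reads of such pairs cannot be told apart.

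RefSeq promoter windows of GRCm38.p6, from 250 bases before to 50 after the start, were held for 5 of the 8 genes (6 windows, with a pair for Adora1). The windows of Grm3, the most abundant of the 8 genes here, and of Itpr2, the IP3 receptor gene known from astrocytes, are shown because they have the lowest and the highest G+C content of the 6, with CpG dinucleotides in capitals. Grm3 is shown from chr5:9725303-9725602 and Itpr2 from chr6:146502174-146502473, both on the minus strand. The Grm3 window is placed by the RefSeq start and lies wholly upstream of the GENCODE gene span, which begins at 9725170. The Itpr2 window holds the GENCODE start of its gene at 146502223.
Grm3: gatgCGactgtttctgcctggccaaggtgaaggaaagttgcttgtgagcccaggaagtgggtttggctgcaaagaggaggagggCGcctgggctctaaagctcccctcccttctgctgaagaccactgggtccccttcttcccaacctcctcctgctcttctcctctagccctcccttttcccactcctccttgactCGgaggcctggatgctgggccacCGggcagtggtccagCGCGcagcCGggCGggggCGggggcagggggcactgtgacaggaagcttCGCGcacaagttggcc
Itpr2: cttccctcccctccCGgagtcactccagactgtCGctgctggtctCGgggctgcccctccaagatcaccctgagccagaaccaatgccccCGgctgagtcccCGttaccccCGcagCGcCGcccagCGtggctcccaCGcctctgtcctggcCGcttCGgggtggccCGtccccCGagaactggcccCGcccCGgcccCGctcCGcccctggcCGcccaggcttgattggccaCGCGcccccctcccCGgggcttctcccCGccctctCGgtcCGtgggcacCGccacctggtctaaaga
The Grm3 window holds 11 CpG dinucleotides at 63.7% G+C and that of Itpr2 26 at 73.3%, beside a median of 7 and 52.7% over 32851 RefSeq promoter windows of the same length. The CREB motif TGACGTCA, searched because the series title names that factor, was in none of the 6 windows on either strand, nor was its core TGACG, which is contained in the full motif. Of all windows, 1.79% hold the full motif and 20.8% the core.

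Library totals ranged from 0.941 M to 37.3 M counts, with a median of 11.3 M. Background cover, the FPKM of 1479 olfactory, vomeronasal and trace-amine receptor genes as a percent of an even spread of the library's counts over all gene spans, ranged from 13.4% to 81.1%. In 6 libraries it was under 40%, namely PFC susceptible 1, PFC resilient 1 and 2, PFC control 1 and 2, and NAc control 3, the shallowest library. All 16 astrocyte markers had a median FPKM over 2 times the background FPKM of their library, led by Aldoc (45.4 FPKM) and Atp1b2 (43.3 FPKM). Of 10 pan-neuronal markers 3 passed the same mark, and of 9 oligodendrocyte markers all 9 did.

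Grm3 stood highest above that background. Its median FPKM over the 39 libraries was 6.07 times the background FPKM of the same library, and 1 library was under 2 times. Adora1 followed at 2.69 times, then Itpr2 (2.15 times), Adra1a (2.10 times), Itpr1 (2.01 times), Itpr3 (1.69 times), Grm5 (1.27 times) and P2ry1 (1.17 times). The ranges over libraries of all neighbours in this order overlap. Grm5 was under 2 times the background in 33 of 39 libraries and P2ry1 in 35. In the 6 libraries of low background the ratios were higher for all 8 genes, with medians of 20.3 for Grm3, 7.46 for Adora1, 7.01 for Itpr1, 4.53 for Grm5, 3.42 for Adra1a, 3.18 for Itpr2, 2.41 for Itpr3 and 1.78 for P2ry1. In the other 33 libraries they were 5.58, 2.61, 1.95, 1.18, 2.06, 2.03, 1.58 and 1.13 in the same order of genes. The 6 were set apart by the divisor of this ratio, so higher ratios there do not by themselves mean higher levels. Median FPKM was lower in the 6 for Itpr2 (0.600 against 0.923), Itpr3 (0.431 against 0.722), Adra1a (0.675 against 0.923) and P2ry1 (0.314 against 0.509). Median FPKM was higher in the 6 for Itpr1, Grm3, Grm5 and Adora1.

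**Figure D1:**
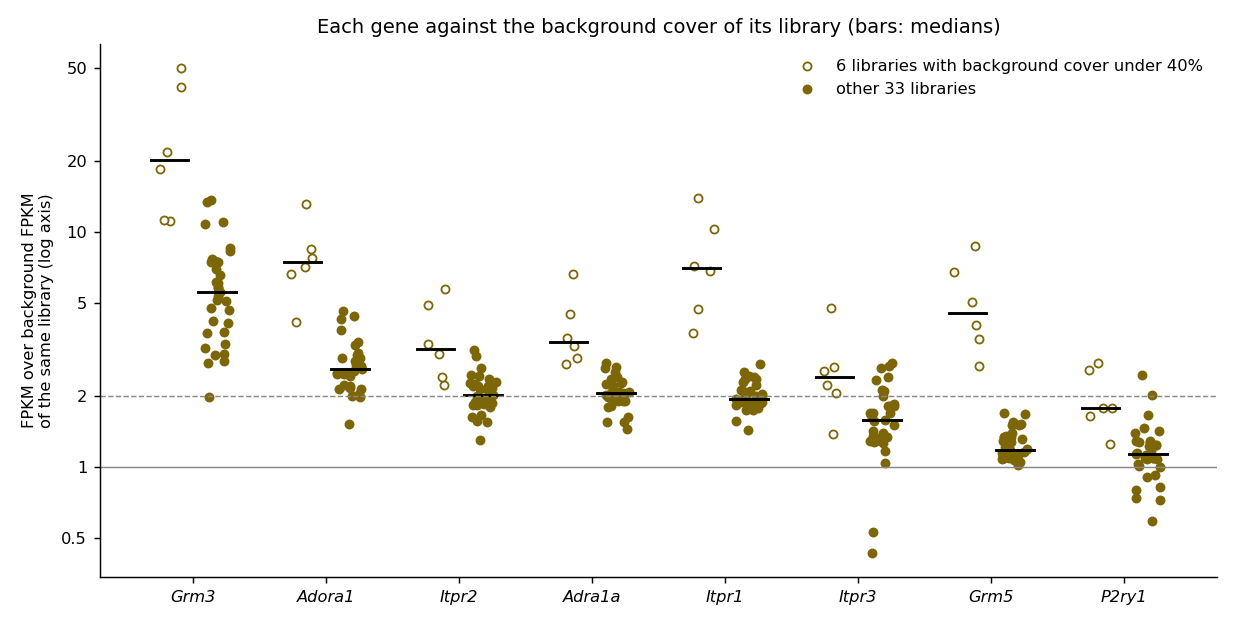
FPKM of each gene divided by the background FPKM of the same library, on a log axis, with a point per library, open for the 6 libraries of background cover under 40% and filled for the other 33. Bars are medians, the solid line marks the background level and the dashed line 2 times that level. Grm3 lies highest in both sets, and filled points of Grm5 and P2ry1 lie close to the solid line. Open points are divided by a lower background FPKM, so their height does not by itself mean a higher level.

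Among the IP3 receptors, Itpr1 and Itpr2 had like levels per gene span, and neither passed the test after defeat in either region. Itpr1 ranged from 0.805 to 0.938 FPKM (median 0.901) in NAc susceptible libraries and from 0.840 to 0.977 (median 0.944) in NAc resilient libraries, against 0.644 to 1.018 (median 0.901) in NAc control libraries. In PFC it ranged from 0.745 to 1.43 FPKM (median 0.892) in susceptible libraries and was 1.35, 0.992, 0.836, 0.968 and 0.880 FPKM in the 5 resilient libraries, against 0.819 to 1.71 (median 0.988) in control libraries. The groups overlap throughout, and the 4 highest values all come from PFC libraries of low background. Itpr2 ranged from 0.860 to 0.996 FPKM (median 0.932) in NAc susceptible and from 0.755 to 1.01 (median 0.919) in NAc resilient libraries, against 0.612 to 0.973 (median 0.913) in NAc control libraries. In PFC, Itpr2 ranged from 0.588 to 1.05 FPKM (median 0.949) in susceptible libraries and was 0.570, 0.709, 0.734, 0.895 and 0.924 FPKM in resilient ones, against 0.551 to 0.953 (median 0.907) in control libraries. Itpr2 ran opposite to Itpr1 in the low-background libraries, where its median was 0.600 FPKM, against 0.923 FPKM in the other 33, while that of Itpr1 was 1.34 against 0.903 FPKM. Itpr3 averaged 0.765 ± 0.184 FPKM in NAc susceptible and 0.760 ± 0.277 in NAc resilient libraries, against 0.590 ± 0.258 in NAc control libraries (SD, n = 8, 7 and 7). In PFC it averaged 0.702 ± 0.286 in susceptible and 0.533 ± 0.279 in resilient libraries, against 0.753 ± 0.272 FPKM in control libraries (SD, n = 6, 5 and 6).

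The glutamate receptor genes differed in level, with Grm3 at a mean of 2.80 FPKM over the 39 libraries and Grm5 at 0.610 FPKM. Grm3 ranged from 1.66 to 3.41 FPKM (median 2.52) in NAc susceptible libraries and from 0.989 to 3.00 (median 1.92) in NAc resilient libraries, against 2.08 to 4.96 (median 2.96) in NAc control libraries. The groups overlap, but 4 of 7 resilient libraries lie below every control library and 3 of 7 control libraries lie above every resilient one. In PFC, Grm3 ranged from 1.38 to 5.11 FPKM (median 4.06) in susceptible libraries and was 3.50, 6.04, 2.60, 1.65 and 3.02 FPKM in resilient ones, against 1.62 to 3.63 (median 2.79) in control libraries. Here 3 of 6 susceptible libraries and 1 of 5 resilient ones lie above every control library. Grm5 ranged from 0.356 to 0.544 FPKM (median 0.522) in NAc susceptible and from 0.4931 to 0.836 (median 0.597) in NAc resilient libraries, against 0.465 to 0.733 (median 0.525) in NAc control libraries. In PFC it ranged from 0.453 to 0.899 FPKM (median 0.528) in susceptible libraries and was 0.946, 0.584, 0.794, 0.654 and 0.608 in resilient ones, against 0.506 to 1.13 (median 0.649) in control libraries.

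The purine and noradrenaline receptor genes showed no called difference, and P2ry1 rested on few reads. Adora1 averaged 1.22 ± 0.183 FPKM in NAc susceptible and 1.17 ± 0.155 in NAc resilient libraries, against 1.24 ± 0.322 in NAc control libraries, and in PFC 1.30 ± 0.153 in susceptible and 1.17 ± 0.176 in resilient libraries, against 1.23 ± 0.140 FPKM in control libraries. Adra1a averaged 0.948 ± 0.064 FPKM in NAc susceptible and 0.906 ± 0.097 in NAc resilient libraries, against 0.878 ± 0.072 in NAc control libraries, and in PFC 0.878 ± 0.115 and 0.792 ± 0.160, against 0.865 ± 0.171 FPKM in control libraries. P2ry1 averaged 0.505 ± 0.105 FPKM in NAc susceptible and 0.550 ± 0.122 in NAc resilient libraries, against 0.419 ± 0.097 in NAc control libraries, and in PFC 0.552 ± 0.200 and 0.434 ± 0.126, against 0.499 ± 0.130 FPKM in control libraries (all SD). Over the 39 libraries the coefficient of variation was 13.1% for Adra1a, 15.1% for Itpr2 and 15.7% for Adora1, against 39.6% for Grm3 and 36.98% for Itpr3.

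**Figure D2:**
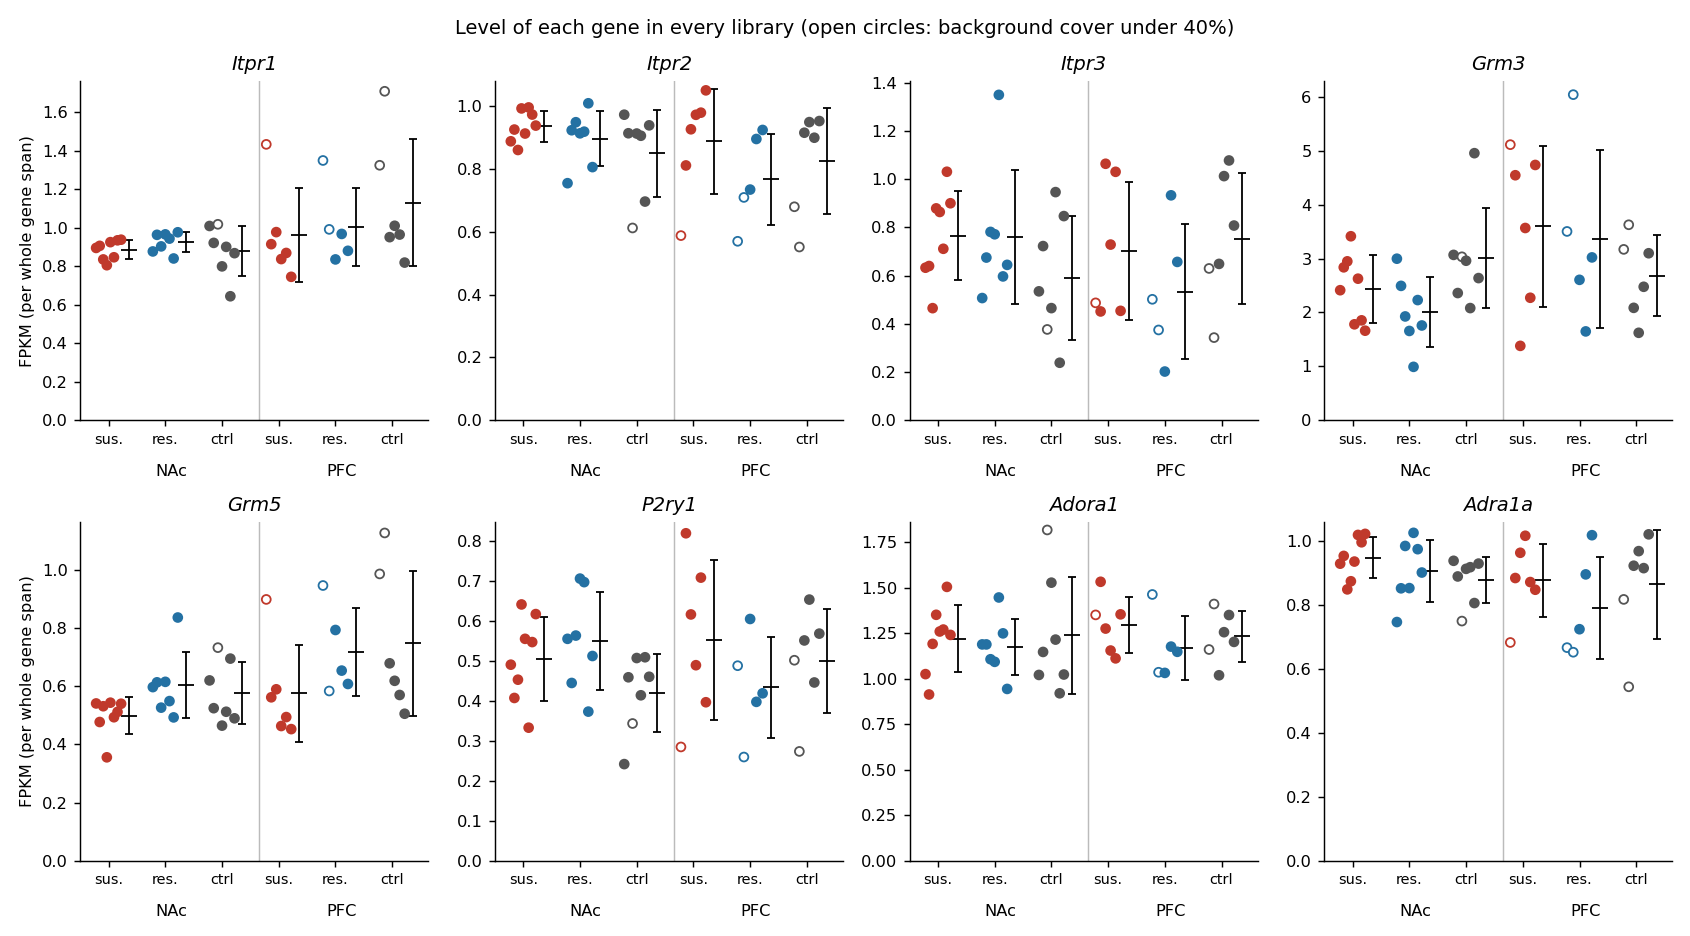
FPKM per whole gene span of each of the 8 genes in every library, by region and condition (sus., susceptible; res., resilient; ctrl, control), with a circle per library and mean ± SD beside it. Open circles are the 6 libraries of background cover under 40%. The groups overlap for every gene, the 4 highest Itpr1 and Grm5 values are open circles, and so are the 3 lowest Itpr2 and Adra1a values.

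The first question, whether the genes differ between defeated and control mice, was put to edgeR's quasi-likelihood test over all genes. In NAc susceptible against control mice 0 of 8 genes passed a Benjamini-Hochberg adjusted p of 0.05, as did 0% of the 35943 genes tested. At an unadjusted p under 0.05 there was 1 of 8, Grm5, beside 3.02% of all genes. Grm5 had a log2 fold change of -0.30 ± 0.14 (SE; edgeR adjusted p = 1.00), and without NAc control library 6 it was -0.21. Grm3 was at -0.39 ± 0.27 and Itpr3 at 0.30 ± 0.19, neither past an unadjusted p of 0.05. Without the same control library Grm3 was at -0.17 and Itpr3 at 0.17. With limma-voom library weights the 3 values were -0.08 for Grm5, -0.18 for Grm3 and 0.05 for Itpr3. The median log2 fold change of the 8 genes was -0.02, beside -0.00 over all genes tested.

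In NAc resilient against control mice again 0 of 8 passed, as did 0% of all genes, and 1 of 8 had an unadjusted p under 0.05, beside 6.14% of all genes. This was Grm3, at -0.68 ± 0.28 (log2, SE; edgeR adjusted p = 0.756). Without NAc control library 6 the log2 fold change was -0.46, with the background percent as a covariate -0.41, and among genes above 2 times background alone -0.44. The background percent averaged 64.6% in NAc resilient libraries, against 53.2% in NAc control libraries. Itpr3 was at 0.25 ± 0.20, or 0.09 without NAc resilient library 5, 0.13 without NAc control library 6, 0.39 without NAc control library 5 and 0.00 with limma-voom, and P2ry1 at 0.26 ± 0.20, or 0.17 without NAc control library 1. The median over the 8 genes was -0.02, beside 0.01 over all genes. Of the 16 astrocyte markers 15 had a negative log2 fold change in this comparison, with a median of -0.57, and 0 of 16 passed the threshold. Their summed level ran from 2152 to 10088 CPM (counts scaled to the library total) in NAc resilient libraries, against 4122 to 9926 CPM in NAc control libraries, and none was at 0 in any library. Oligodendrocyte markers were lower too, 9 of 9 with a median log2 fold change of -1.20 in resilient and 9 of 9 with a median of -0.83 in susceptible mice against controls. Of the 9, 8 had an unadjusted p under 0.05 in resilient and 4 in susceptible mice, and 0 were called in either. Their summed level ran from 660 to 2764 CPM in NAc susceptible and from 596 to 1905 CPM in NAc resilient libraries, against 745 to 4261 CPM in NAc control libraries. Their part in the Grm3 values was not tested. In bulk samples, fewer astrocytes and less RNA per astrocyte cannot be told apart. Per 1000 counts of the 16 astrocyte markers, Grm3 had 100.4 ± 11.4 counts in NAc susceptible and 116.9 ± 27.9 in NAc resilient libraries, against 113.6 ± 11.0 in NAc control libraries (SD). This ratio ranged from 71.2 to 155.5 in NAc resilient libraries, against 95.0 to 127.4 in NAc control libraries, and was not tested.

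Susceptible against resilient mice in NAc gave 0 of 8 called genes, beside 0% of all genes, and 0 of 8 at an unadjusted p under 0.05, beside 2.9%. Grm5 was at -0.27 ± 0.14 and Grm3 at 0.29 ± 0.27 on the log2 scale. With DESeq2 1 of 8, Grm5, had an unadjusted p under 0.05, and without NAc resilient library 7 its log2 fold change was -0.17. With the background percent as a covariate Grm3 was at 0.04, without NAc resilient library 5 at 0.16, without NAc susceptible library 4 at 0.19 and without NAc resilient library 1 at 0.46.

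In PFC no gene of the 8 passed the test after defeat. In susceptible against control mice 0 of 8 were called, beside 0% of the 32167 genes tested, and 0 of 8 had an unadjusted p under 0.05, beside 0.482% of all genes. Grm3 was at 0.49 ± 0.42, Grm5 at -0.34 ± 0.33 and Itpr2 at 0.14 ± 0.14. Without PFC susceptible library 1, the one of lowest background, Grm3 was at 0.22 and Grm5 at -0.68 (edgeR unadjusted p = 0.0253, not called). Grm5 was at -0.05 without PFC control library 2 and at -0.22 without PFC control library 1. Itpr2 was at 0.09 without PFC susceptible library 6. In resilient against control mice 0 of 8 were called, beside 0% of all genes, and 0 of 8 had an unadjusted p under 0.05, beside 0.597%. Grm3 was at 0.46 ± 0.44, a value that was 0.02 without PFC resilient library 2 and 0.72 without PFC control library 2, and Itpr3 at -0.38 ± 0.29, which was -0.19 without PFC resilient library 3. In susceptible against resilient mice 0 of 8 were called, beside 0% of all genes, and 0 of 8 had an unadjusted p under 0.05, beside 0.572%. With limma-voom 1 of 8 had an unadjusted p under 0.05 there, beside 2178 genes in all. The median log2 fold change of the 8 genes in these 3 comparisons was 0.09, -0.02 and 0.09, beside -0.01, -0.02 and 0.00 over all genes. With the replicate number as a block, 819, 624 and 502 genes had an unadjusted p under 0.05 in these 3 comparisons, against 155, 192 and 184 without it, and 0 of 8 in each. The labels do not state that same-numbered libraries are pairs. Under the block Grm3 was at 0.44 in both susceptible and resilient mice against controls, Grm5 at -0.34 in susceptible mice and Itpr3 at -0.39 in resilient mice. Astrocyte markers had a median of 0.73 in susceptible and 0.69 in resilient PFC mice against controls, all 16 positive in both, with 0 of 16 called. Grm3 per 1000 astrocyte marker counts was 115.0 ± 28.1 in PFC susceptible and 113.5 ± 23.004 in PFC resilient libraries, against 127.5 ± 16.1 in PFC control libraries (SD).

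**Figure D3:**
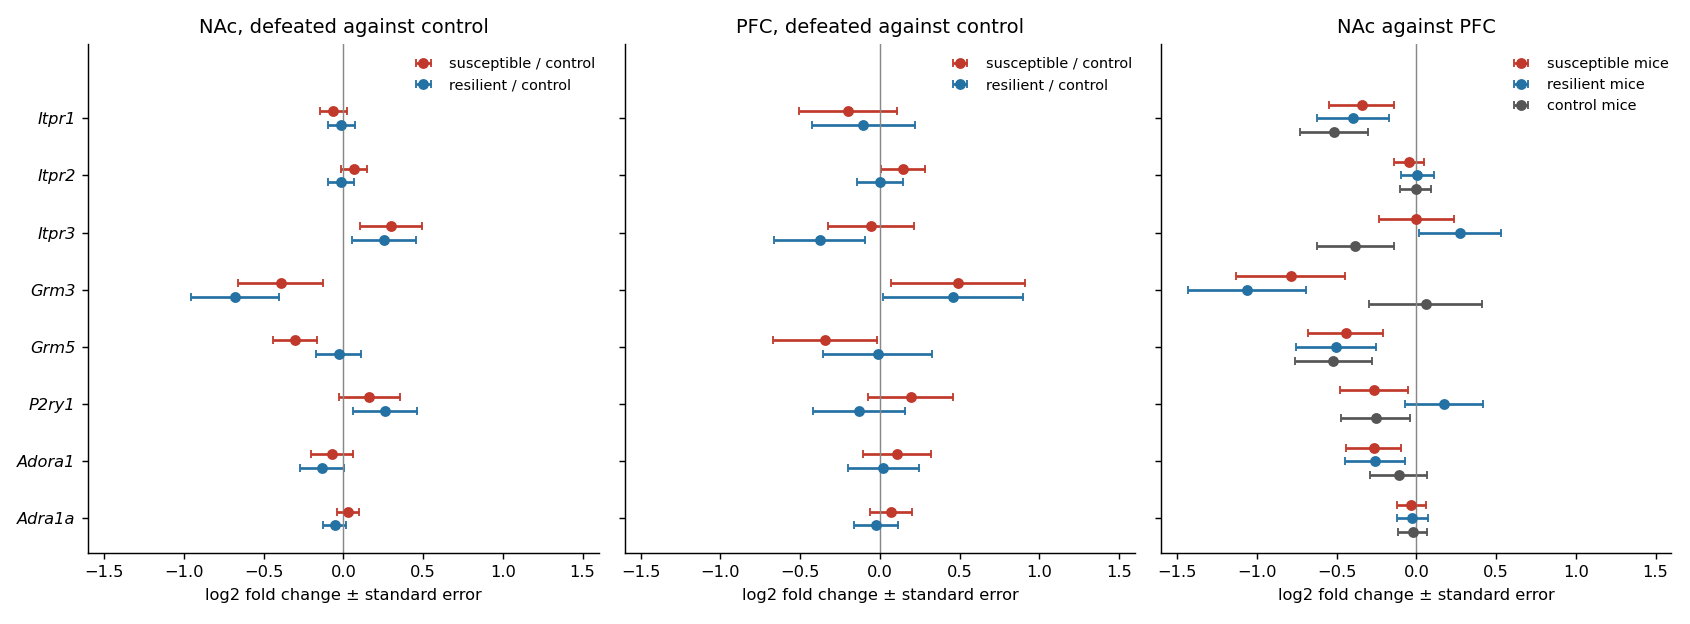
Log2 fold change of each gene with its standard error from edgeR, for defeated against control mice in NAc and in PFC and for NAc against PFC within each condition. A positive value means higher in the defeated mice or in NAc, and 0 of 8 genes passed an adjusted p of 0.05 in any of these 7 comparisons. Grm3 lies left of 0 in both NAc comparisons and right of 0 in both PFC comparisons.

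Between NAc and PFC, Itpr1, Grm5 and Grm3 were the genes with an unadjusted p under 0.05 in some condition, and none was called. In control mice 0 of 8 passed, beside 0.00262% of the 38171 genes tested (1 gene), and 2 of 8 had an unadjusted p under 0.05, beside 5.04%. These were Itpr1 at -0.52 ± 0.21 (edgeR adjusted p = 0.677) and Grm5 at -0.52 ± 0.24 (edgeR adjusted p = 0.880). Itpr1 averaged 0.880 ± 0.129 FPKM in NAc control libraries, against 1.13 ± 0.330 in PFC control libraries, and Grm5 0.577 ± 0.106 against 0.748 ± 0.250 FPKM (SD, n = 7 and 6). Without the 6 low-background libraries, both log2 fold changes were near 0, at -0.05 for Itpr1 and -0.00 for Grm5. Without PFC control library 2 alone they were -0.19 and -0.20. All 10 pan-neuronal markers were lower in NAc in this comparison, each at an unadjusted p under 0.05 and 0 of 10 called, with a median log2 fold change of -1.43. Their summed level ran from 630 to 1386 CPM in NAc control libraries, against 835 to 3362 CPM in PFC control libraries, and none was at 0 in any library. What part neuronal RNA has in the values of Itpr1 and Grm5 was not tested beyond these values. Itpr3 was at -0.38 ± 0.24 and P2ry1 at -0.26 ± 0.22 in control mice, neither past an unadjusted p of 0.05. Itpr3 was at -0.24 with limma-voom, and P2ry1 at -0.14 without NAc control library 1. With the replicate number as a block Itpr3 was at -0.47 (edgeR unadjusted p = 0.0310) and was not called.

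In susceptible mice 0 of 8 passed between the regions, beside 0.00262% of all genes (1 gene), and 1 of 8 had an unadjusted p under 0.05, beside 6.23%. This was Grm3, at 2.44 ± 0.631 FPKM in NAc and 3.60 ± 1.49 FPKM in PFC (SD, n = 8 and 6), a log2 fold change of -0.79 ± 0.34 (edgeR adjusted p = 0.718). It was -0.50 without the low-background libraries, -0.52 without PFC susceptible library 1, and -0.34 with the background percent as a covariate. In resilient mice 0 of 8 passed, beside 0% of all genes, and 1 of 8 had an unadjusted p under 0.05, beside 14.6% of all genes, the highest share of any comparison. This was again Grm3, at 2.01 ± 0.644 FPKM in NAc and 3.36 ± 1.65 FPKM in PFC (SD, n = 7 and 5), a log2 fold change of -1.06 ± 0.37 (edgeR adjusted p = 0.308). It was -0.27 without the low-background libraries, -0.63 without PFC resilient library 2 alone and -0.28 with the background covariate. Astrocyte markers had a median log2 fold change of -0.60 in susceptible and -1.05 in resilient mice between the regions, with 15 and 16 of 16 negative and 0 called. Itpr1 and Grm5 were at -0.34 ± 0.21 and -0.44 ± 0.23 in susceptible mice and at -0.40 ± 0.22 and -0.50 ± 0.25 in resilient mice, none past an unadjusted p of 0.05. Without the low-background libraries these 4 values were -0.02, -0.09, 0.04 and -0.19, so the sign for Itpr1 in resilient mice did not hold. With consecutive sample numbers as pairs, which could be 1 mouse each, they were -0.22, -0.28, -0.09 and -0.16. Without PFC susceptible library 1 alone Itpr1 was at -0.02 and Grm5 at -0.09 in susceptible mice, and without PFC resilient library 1 alone they were at -0.20 and -0.31 in resilient mice.

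Whether defeat acted differently in the 2 regions was tested as the NAc effect minus the PFC effect. For susceptible mice 0 of 8 genes passed, beside 0% of all genes, and 0 of 8 had an unadjusted p under 0.05, beside 1.38%. For resilient mice 0 of 8 passed, beside 0%, and 1 of 8 had an unadjusted p under 0.05, beside 3.45%. This was Grm3, with a difference of -1.12 ± 0.52 (log2, SE; edgeR adjusted p = 0.849), which was -0.71 without PFC resilient library 2 and -0.56 with the background covariate. Its difference for susceptible mice was -0.85 ± 0.50. The 16 astrocyte markers had a median difference of -1.28 for resilient and -0.84 for susceptible mice, all 16 negative in both and 0 called. The region and interaction comparisons share their control libraries with the comparisons above.

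Of the 8 genes, Grm3 had the highest correlation with the astrocyte markers in both regions. Over the 22 NAc libraries its log2 CPM and the mean log2 CPM of the 16 markers had r = 0.922 and rho = 0.928 (permutation test, two-sided p = 1e-05, the smallest that 100000 resamples can give, for both). Without the libraries farthest from the median, NAc resilient 4 and 5, r was 0.905. Over the 17 PFC libraries r was 0.980 and rho 0.988 (permutation p = 1e-05 for both), 0.970 without PFC susceptible 3 and PFC resilient 2, and 0.978 over the 12 PFC libraries that are not of low background. The Benjamini-Hochberg adjusted p over 32 relations was 8e-05 in both regions for r. CPM values of a library share its total and scaling factor. These r were not adjusted for the background percent, against which Grm3 also ran. The share of all genes with such an r was not computed. Itpr3 ran the other way in NAc (r = -0.624, rho = -0.635, permutation p adjusted over the 32 relations 0.00745 for r and 0.0108 for rho), with r = -0.565 without the same 2 libraries. In PFC Itpr3 had r = -0.475 (adjusted permutation p = 0.118) and rho = -0.640 (adjusted permutation p = 0.0256), and over the 12 PFC libraries rho was -0.664 (adjusted permutation p = 0.118). For Itpr2, the gene of the main astrocytic IP3 receptor, the relation to the astrocyte markers had r = 0.255 in NAc and 0.228 in PFC, with adjusted permutation p of 0.407 and 0.510. Without NAc control library 3 the NAc values were r = 0.53 (adjusted permutation p = 0.0723) and rho = 0.579 (adjusted permutation p = 0.0403), and over the 12 PFC libraries r was 0.559 (adjusted permutation p = 0.201). For Adra1a r was 0.310 and 0.260, and for P2ry1 -0.052 and -0.120, all with an adjusted permutation p above the threshold of 0.05. Adora1 had r = 0.633 and rho = 0.725 in PFC (adjusted permutation p = 0.0255 for r and 0.00890 for rho), with r = 0.721 without the 2 farthest libraries. Over the 12 PFC libraries r was 0.565 and did not pass (adjusted permutation p = 0.201), and in NAc r was 0.418.

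Itpr1 tracked the pan-neuronal markers. The 5 PFC libraries of low background stand apart on these markers, with 1510 to 3362 summed CPM, above the other 12 PFC libraries. PFC relations are therefore given first for the 12. There Itpr1 and the mean of the 10 pan-neuronal markers had r = 0.876 and rho = 0.888 (permutation p adjusted over the 32 relations 0.00117 for r and 0.00203 for rho), and r = 0.891 without the 2 farthest of the 12. In NAc r was 0.708 and rho 0.53 (adjusted permutation p = 0.00219 for r and 0.0436 for rho). Without NAc control library 3, which is of low background, r was 0.57 and rho 0.455 (adjusted permutation p = 0.0410 for r and 0.158 for rho), so the call for rho was lost. Without NAc control 3 and NAc resilient 2, the libraries farthest from the median, r was 0.497. For Grm5 r was 0.481 in NAc and 0.420 in the 12 PFC libraries, with adjusted permutation p of 0.0614 and 0.398. Over all 17 PFC libraries r was 0.928 for Grm5 and 0.984 for Itpr1 (adjusted permutation p = 8e-05 for both). For Grm5 rho over the 17 was 0.836 (adjusted permutation p = 0.00056). The relation of Grm5 in PFC thus passed only with the 5 libraries of low background included. Adora1 had r = 0.538 with the neuronal markers in NAc (adjusted permutation p = 0.0415), a relation that rests on NAc control library 3, without which r was 0.262 (adjusted permutation p = 0.497). Itpr2 had r = -0.338 with the neuronal markers in NAc, or 0.036 without NAc control library 3, and -0.499 in the 12 PFC libraries, none past the adjusted threshold. Over all 17 PFC libraries Itpr2 had r = -0.583 and rho = -0.627 (adjusted permutation p = 0.0415 for r and 0.0299 for rho). Adora1 had r = 0.828 over the 17 (adjusted permutation p = 0.00147), against 0.289 over the 12 (adjusted permutation p = 0.628).

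Grm3 and Adora1 ran against the background percent, a relation added after the data were seen. CPM and the background percent are both scaled to the library total. A gene well above background thus tends to fall in CPM as the background percent rises, so a negative sign is partly built in. The p-values below therefore do not show a trait of these genes, and the share of all genes with such a relation was not computed. Grm3 had r = -0.620 in NAc and -0.861 in the 12 PFC libraries, and Adora1 -0.723 and -0.809, the adjusted permutation p over 16 relations being 0.00600 and 0.00416 for Grm3 and 0.00060 and 0.00779 for Adora1. The matching rho were -0.798 and -0.762 for Grm3 and -0.575 and -0.629 for Adora1, with adjusted permutation p of 0.00016 and 0.0297 for Grm3 and 0.0232 and 0.102 for Adora1. Without the 2 libraries farthest from the median, r was -0.653 and -0.693 for Grm3 and -0.559 and -0.428 for Adora1. Itpr1, Itpr3, Grm5, P2ry1 and Adra1a had no relation to it past the adjusted threshold in either set. The 12 PFC libraries were chosen by the background percent itself, which narrows its range. Over all 17 PFC libraries Itpr1 had r = -0.863 and Grm5 r = -0.748 (adjusted permutation p = 0.00032 and 0.00317). The matching rho were -0.583 and -0.456 (adjusted permutation p = 0.0519 and 0.153). Itpr2 had r = -0.154 in NAc, or -0.686 without NAc control library 3 (adjusted permutation p = 0.00416), and -0.615 in the 12 PFC libraries (adjusted permutation p = 0.0861).

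**Figure D4:**
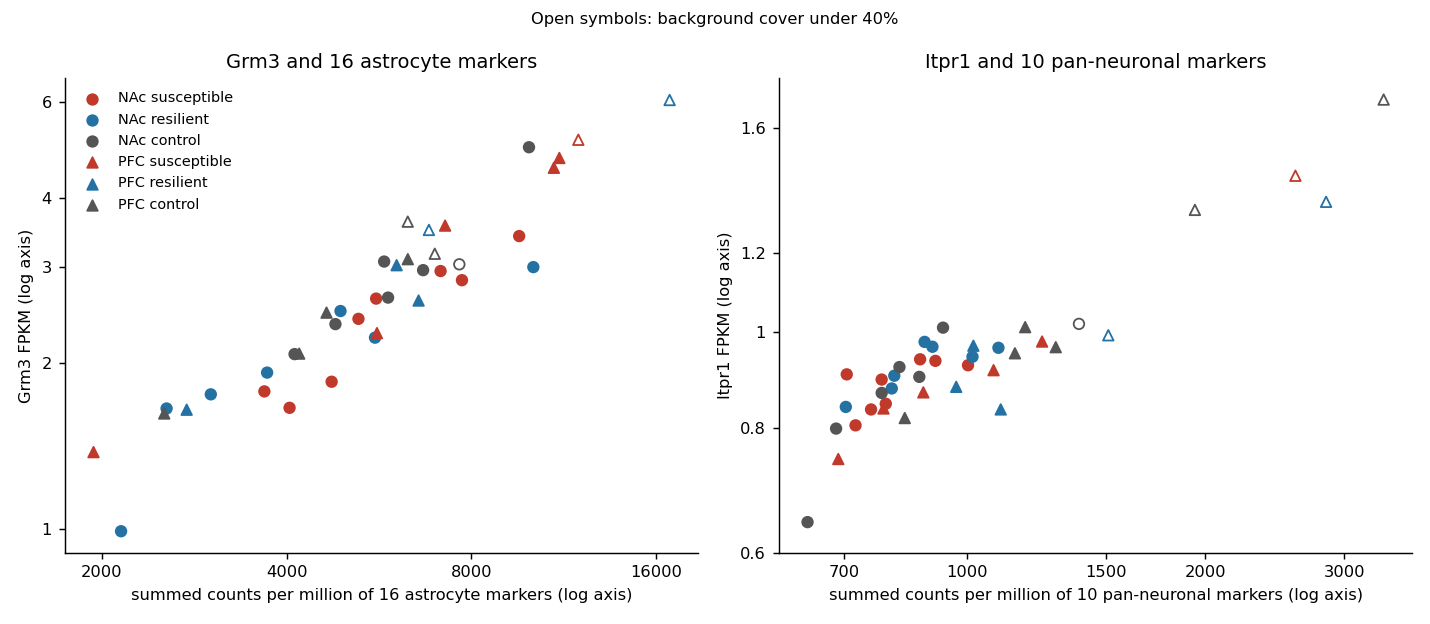
Left, Grm3 FPKM against the summed CPM of 16 astrocyte markers, and right, Itpr1 FPKM against the summed CPM of 10 pan-neuronal markers, with a point per library and log axes. Circles are NAc and triangles PFC libraries, and open symbols have background cover under 40%. Grm3 follows the astrocyte markers over the whole range, and the 4 highest Itpr1 values are the PFC libraries with the most neuronal marker counts.

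The genes whose log2 CPM was most like that of each gene over the 39 libraries, among 13961 protein-coding genes with an average log2 CPM above 3, were found as a description. All 39 libraries enter, so the 6 of low background weigh on r, and r over the other 33 is given beside it. Among the closest to Grm3 were Tspan7 (r = 0.983, and 0.975 over 33 libraries) and Macf1 (0.976 and 0.960). Closest to Itpr1 were Grin2b, an NMDA receptor subunit gene (0.979 and 0.728), Prkcb (0.974 and 0.662) and Sipa1l1 (0.972 and 0.672). Closest to Grm5 were Lrrc7 (0.989 and 0.966), Dlg2, a synaptic scaffold gene (0.983 and 0.967), and Grm7 (0.978 and 0.945), long genes like Grm5 (spans of 479, 1973 and 922 kb). Closest to Itpr3 were Ccdc85c (0.915 and 0.931), Hspg2, the perlecan gene (0.884 and 0.910), and Itga3, an integrin subunit gene (0.880 and 0.884). Adora1 was most like Tecpr1 (0.880 and 0.725), Foxk1 (0.871 and 0.674) and Ubald1 (0.863 and 0.734), and Itpr2 most like Tfcp2l1 (0.818 and 0.739), Fam163a (0.804 and 0.669) and Aass (0.751 and 0.515). Adra1a and P2ry1 had no close partner. The highest r for Adra1a were 0.641 with Aox1, 0.600 with Nat8f3 and 0.561 with Reep3. For P2ry1, r was at most 0.476, with Ints12, and 0.437 with Hdx.

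The rest of the route was read from 7 lists of 131 genes in all, from Gq proteins to calcium channels, and 0 of 131 passed the adjusted threshold in any of the 11 comparisons. At an unadjusted p under 0.05 there were 2 higher and 5 lower in NAc susceptible and 3 higher and 5 lower in NAc resilient mice against controls, beside 3.02% and 6.14% of all genes. In PFC there was 1 higher and 0 lower in susceptible and 0 in either direction in resilient mice against controls, beside 0.482% and 0.597% of all genes. Between the regions in control mice 4 were higher and 32 lower in NAc, 9 of the 32 being among the 22 calcium entry channel genes, beside 5.04% of all genes (414 higher and 1510 lower). In the same comparison all 10 pan-neuronal markers were lower at that threshold, and their part in these counts was not tested. The median log2 fold change of the 131 genes in these 5 comparisons was 0.02, 0.01, -0.06, -0.05 and -0.12. By level, the endoplasmic reticulum chaperone genes Calr (14.1 FPKM on average over the 39 libraries) and Canx (2.82 FPKM) led the calcium store list, and the regulator genes Rgs4 (6.44 FPKM) and Rgs5 (2.24 FPKM) led the RGS list. Rgs5 is also in the list of mural cell markers. Gabbr1, a GABA-B receptor subunit gene, was at 4.83 FPKM and Adra2a, an alpha-2 adrenergic receptor gene, at 1.40 FPKM. Ahcyl1, which encodes a partner protein of IP3 receptors, was at 3.90 FPKM, and Itpka, an IP3 kinase gene, at 1.24 FPKM. Plcd4 and Plcg1, phospholipase C genes, were at 2.31 and 1.53 FPKM. Ednrb, an endothelin receptor gene of astrocytes, was at 2.38 FPKM and Chrm5, a muscarinic receptor gene, at 1.41 FPKM. The calcium channel genes Cacna1a (1.00 FPKM) and P2rx4 (0.945 FPKM) led the channel list at levels near those of the IP3 receptor genes. Calr was 23.4, Gabbr1 9.68 and Ahcyl1 8.296 times the background FPKM by the median, above the 6.07 of Grm3, and Ednrb was at 6.05. In the list of other Gq-coupled receptors 4 of 22 genes, and in that of Gi- and Gs-coupled receptors 4 of 19, had a median over 2 times the background.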

How the data were processed

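RNA of ACSA-2 sorted cells (500 pg per library) went into a stranded total RNA kit for very small inputs, per the labels' protocols. The deposited counts were made by the authors with featureCounts on mm10, per the submitters' processing notes. The sources used here name no aligner, annotation, strand option or version. FPKM deposited by the authors equal counts over whole gene span and library total, for 54229 of 54229 genes compared (relative difference under 1e-06). Each library carries its own mouse id in the labels, but 16 pairs of consecutive ids, PFC and NAc of one condition, could be 1 mouse each.

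Counts were tested with edgeR 4.0.16 in R 4.3.3 (quasi-likelihood, trimmed-mean scaling, default count filter, robust dispersion, Benjamini-Hochberg adjustment at 0.05). The size of planted fold changes was checked on simulated counts. These had no differences in background or cell content between libraries, so they do not show how the test performs on such differences. Each region had a fit of its 3 conditions, and a fit of all 39 libraries gave the region comparisons and interactions. All 8 genes passed the filter in every fit. P-values are two-sided and measure the spread between libraries. Alternatives were other scalings and filters, DESeq2 1.42.0, limma 3.58.1 (voom, and trend on log2(FPKM + 0.5)), a replicate block, the background percent as covariate, and libraries left out. Same-numbered PFC libraries deviated together in every pair (lowest r 0.162), but the labels do not state that they are pairs. The closest match carried the same number in 2 of 5 libraries (susceptible and resilient), 2 of 6 (susceptible and control) and 3 of 5 (resilient and control). The 5 PFC libraries of low background all carry number 1 or 2. The block is therefore given as an alternative and not as a paired design. Permutation tests used numpy 2.4.6 and scipy 1.17.1.

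The 8 genes and the lists were chosen with earlier results of these data known. Named are all 8 genes, the 2 highest genes per list by mean FPKM and the 3 most similar genes, of which some are not reported here. A fold change within 1 standard error of 0 was given no direction, a rule set after the data were seen. Coordinates are of GENCODE M21 on mm10 (55141 of 55401 identifiers matched).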

Additional observations from a re-analysis of the deposited data

Results flagged for a closer look

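Within a group, a single library lay far from the others in 6 of 48 combinations of gene and group tested. For independent, normally spread values chance flags about 1 in 20. The combinations share libraries, and some genes vary together (Itpr1 and Grm5 in PFC, r = 0.947), so no excess over chance can be read from this count. Itpr1 was at 1.43 FPKM in PFC susceptible library 1, with the next library at 0.977 FPKM. In the same library, the one of lowest background cover (13.4%), Grm5 was at 0.899 FPKM, with the next at 0.590 FPKM. Its pan-neuronal markers summed to 2601 CPM, against 689 to 1245 CPM in the other 5 libraries of the group, and their part in both values was not tested. Grm3 was at 4.96 FPKM in NAc control library 6, with the next library at 3.07 FPKM, and the astrocyte markers of that library summed to 9926 CPM, the highest of the group. Itpr3 was at 1.35 FPKM in NAc resilient library 5, with the next at 0.781 FPKM, in the library with the lowest astrocyte marker sum of NAc (2152 CPM). Grm5 was lowest in NAc susceptible library 4, at 0.356 FPKM with the next at 0.477 FPKM, and highest in NAc resilient library 7, at 0.836 FPKM with the next at 0.615 FPKM. That last library had the highest background cover of all, 81.1%.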

How the results depend on the processing

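The count of called genes among the 8 was 0 in all 11 comparisons. It was also 0 in all 427 alternative counts, each for a comparison under an alternative setting (scaling, filter, DESeq2, limma-voom, limma-trend, replicate block, background covariate, consecutive sample numbers as pairs, libraries or genes left out, each library left out in turn). Over all genes, DESeq2 called 34, 5 and 24 between the regions in control, susceptible and resilient mice, against 1, 1 and 0 with edgeR. Limma-voom called 16, 1 and 0. The 50 fold changes considered cover all 8 genes for defeated against control mice in each region and for NAc against PFC in control mice. Added to these were values of Grm3, Itpr1 and Grm5 printed above for other comparisons. The remaining fold changes of the 11 comparisons were left out. Of the 50, 25 lay within 1 standard error of 0, and 21 of these had the other sign under some alternative. Of the 25 others, 22 kept their sign under every alternative. For Itpr1 between the regions the sign turned in susceptible mice with limma-voom (0.0036) and in resilient mice with the background covariate (0.040) and without the low-background libraries (0.037), and for Grm5 in susceptible mice with limma-voom (0.0048). The cause was not tested. The alternatives without the low-background libraries and with only genes above 2 times background were chosen after seeing the data. In the labels, same-numbered libraries share only a number, in NAc and in PFC. With the replicate number as a block, Grm3 was at -0.69 in NAc resilient against control mice and at -0.50 between the regions in susceptible mice, and no call of the 8 genes changed. Depth limits P2ry1 most, with 2 counts in its lowest library.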
